A study of Mus musculus with 2 samples.

Results

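CG methylation of 50 genes of the Wnt pathway was examined in primary mouse osteoblasts with and without the TET dioxygenases. The members were taken by name from the 21938 protein-coding genes that GENCODE M21 places on the chromosomes of GRCm38, and all 50 were found. They comprised 22 genes of secreted ligands and agonists (the 19 Wnt genes with Rspo1, Rspo2 and Rspo3), 12 receptor genes (Fzd1 to Fzd10, Lrp5 and Lrp6), 11 antagonist genes and 5 genes of nuclear effectors (Lef1, Tcf7, Tcf7l1, Tcf7l2 and Ctnnb1). Whole genome bisulfite sequencing (WGBS) was carried out on genomic DNA of primary osteoblasts of 3-day-old C57BL/6 mice, which the study's methods describe as collagenase-released cells of the calvaria grown in dishes. The WT library was labelled wild type. The TCKO library came from animals that carried Prx1-Cre together with Tet1fl/fl, Tet2fl/fl and Tet3fl/fl, in which the 3 Tet genes are deleted where Prx1-Cre is active, that is in limb and part of the cranial mesenchyme. Cells in which Prx1-Cre was not active keep their Tet genes, and whether the WT animals carried Cre or floxed alleles is not given in the labels. There was 1 library per genotype, so each test below compares the 2 libraries and has no replicate check, and each interval covers counting error only.

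Secreted Wnt proteins bind Frizzled receptors together with the coreceptors LRP5 and LRP6, which stops the destruction of beta-catenin (Ctnnb1) so that it enters the nucleus and acts with the TCF/LEF factors. R-spondins raise receptor levels at the cell surface, whereas sclerostin (Sost), the Dickkopf proteins and the secreted Frizzled-related proteins keep ligand and receptor apart. In bone this pathway drives osteoblast formation, and loss of LRP5 lowers bone mass while loss of sclerostin raises it. TET enzymes oxidise 5-methylcytosine on the way to its removal, and bisulfite sequencing reads 5-methylcytosine and 5-hydroxymethylcytosine alike as methylated.

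The WT library held 261127589 calls and the TCKO library 223645082, of which 70.2% and 76.3% were methylated, so a difference at a Wnt gene has to be read against a genome-wide shift. Tet1, Tet2 and Tet3 each held a stretch that lost most of its depth in TCKO (755 to 70 calls over 3500 bp, 122 to 13 over 2000 bp and 133 to 9 over 1500 bp), stretches that were chosen for that loss. Of 7 osteoblast genes, Col1a1 and Col1a2 were least methylated within 2 kb of the transcription start site (TSS) in WT, at 3.38% and 5.45%, and stood at 19.6% and 19% in TCKO. Runx2 was at 16.3% and 46.4% and Sp7 at 33.6% and 47.2%. Alpl (55.6% and 60.4%), Ibsp (60.8% and 82.6%) and Bglap (76.8% and 81.0%) were more methylated in both libraries. The 3 haematopoietic and 3 endothelial genes examined were at 59.3% to 80% in WT, a range that also held Ibsp and Bglap. These are methylation levels, and no expression was measured in these files.

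The regions that changed most were compared first through their sequence. The genome was divided into 200 bp bins, and a bin was testable where it held at least 4 CG cytosines, counted on either strand, with a mean of at least 4 calls per cytosine in each library. A testable bin was said to gain where its pooled level was at least 40 percentage points higher in TCKO. The bin of largest gain in each role is given here from the GRCm38 genome, plus strand, 5′ to 3′, with each CG in capitals, since only the capitals were measured.
Ctnnb1 (chr9:120948201-120948400): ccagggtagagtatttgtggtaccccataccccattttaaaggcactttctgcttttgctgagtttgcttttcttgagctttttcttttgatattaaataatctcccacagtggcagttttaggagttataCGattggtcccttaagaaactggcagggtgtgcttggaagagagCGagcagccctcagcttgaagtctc
Sfrp1 (chr8:23421601-23421800): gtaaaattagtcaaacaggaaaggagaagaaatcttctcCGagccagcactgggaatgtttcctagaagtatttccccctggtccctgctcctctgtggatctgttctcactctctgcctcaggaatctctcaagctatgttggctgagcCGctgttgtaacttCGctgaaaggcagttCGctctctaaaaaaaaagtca
Lrp6 (chr6:134518601-134518800): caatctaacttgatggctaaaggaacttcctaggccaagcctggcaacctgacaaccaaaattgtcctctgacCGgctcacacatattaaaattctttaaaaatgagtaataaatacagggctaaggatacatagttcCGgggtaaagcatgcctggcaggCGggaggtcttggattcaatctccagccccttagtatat
Wnt11 (chr7:98874401-98874600): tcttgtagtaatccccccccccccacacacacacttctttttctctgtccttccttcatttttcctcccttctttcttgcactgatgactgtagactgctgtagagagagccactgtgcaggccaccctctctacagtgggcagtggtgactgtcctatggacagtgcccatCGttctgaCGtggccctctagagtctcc

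The Ctnnb1 bin lay in an intron, at 19084 bp from the TSS. It held 2 CG sites, and 0 of 23 calls were methylated in WT, which allows a level of up to 13%, against 22 of 26 (84.6%) in TCKO. The Sfrp1 bin, also intronic, went from 3 of 39 calls (7.69%) to 35 of 38 (92.1%), and its CG sites read 0 of 14, 0 of 9, 3 of 9 and 0 of 7 calls in WT but 6 of 8, 10 of 10, 10 of 10 and 9 of 10 in TCKO. The Lrp6 bin, in an intron, went from 6.25% (2 of 32 calls) to 88.4% (38 of 43), and none of its 3 sites was above 16.7% in WT or under 81.8% in TCKO. The Wnt11 bin lay outside any protein-coding gene in the downstream flank and went from 19.4% (6 of 31 calls) to 100% (19 of 19). Within it the first CG was at 0 of 15 calls in WT and the second at 6 of 16. In each of these bins every CG site was higher in TCKO than in WT, which the choice of the bins by their gain makes likely.

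Within 2 kb of a member's TSS 4 of 159 testable bins gained (2.52%, interval 0.983% to 6.29%), against 3.15% of the bins within 2 kb of any TSS. They belonged to Rspo2, an agonist, and to the antagonist genes Sostdc1 and Sfrp4, and are shown because a change there is nearest to the promoter.
Rspo2 (chr15:43171201-43171400): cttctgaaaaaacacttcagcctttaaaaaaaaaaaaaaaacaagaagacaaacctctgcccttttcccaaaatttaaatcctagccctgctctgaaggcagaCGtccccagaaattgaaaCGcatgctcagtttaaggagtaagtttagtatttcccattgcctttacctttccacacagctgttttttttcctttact
Sostdc1 (chr12:36312601-36312800): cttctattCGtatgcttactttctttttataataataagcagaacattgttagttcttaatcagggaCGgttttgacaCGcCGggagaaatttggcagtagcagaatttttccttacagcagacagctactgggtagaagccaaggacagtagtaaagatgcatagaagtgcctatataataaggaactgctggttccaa
Sostdc1 (chr12:36314601-36314800): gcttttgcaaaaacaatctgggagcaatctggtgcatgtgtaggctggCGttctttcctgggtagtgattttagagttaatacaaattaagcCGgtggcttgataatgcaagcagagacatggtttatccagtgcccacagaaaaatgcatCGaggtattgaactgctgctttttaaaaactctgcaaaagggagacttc
Sfrp4 (chr13:19624201-19624400): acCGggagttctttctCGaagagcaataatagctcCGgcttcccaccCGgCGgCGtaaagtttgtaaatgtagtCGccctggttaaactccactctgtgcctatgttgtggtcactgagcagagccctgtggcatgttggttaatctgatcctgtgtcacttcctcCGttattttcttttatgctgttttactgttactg

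Sfrp4, a secreted Frizzled-related protein, held the densest of these bins, with 8 CG sites in an intron at 1196 bp from the TSS. Its level was 15.2% in WT (17 of 112 calls, interval 9.70% to 23.0%) and 90.8% in TCKO (89 of 98, interval 83.5% to 95.1%). All 8 sites changed alike, from 7.14% to 23.1% in WT to 76.9% to 100% in TCKO. Sostdc1 encodes a secreted protein related to sclerostin that binds LRP5 and LRP6. Its bin upstream of the TSS, at -1438 bp, went from 37.7% (40 of 106 calls) to 84.7% (94 of 111), and its intronic bin at 562 bp went from 14.7% (5 of 34) to 86.5% (32 of 37). The Rspo2 bin at -474 bp was shallower and changed least, from 6 of 23 calls (26.1%) to 28 of 42 (66.7%). In each of these bins the intervals of the libraries did not overlap, which the choice of the bins by their gain makes likely. Those of Rspo2 (12.5% to 46.5% and 51.6% to 79.0%) lay closest together.

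Over the members and 25 kb on each side, 4588 bins were testable and 218 gained (4.75%, interval 4.17% to 5.41%), while 3.1% of the testable bins of the genome did and 3.21% of those within 25 kb of any protein-coding gene. With an adjusted p below 0.05 added to the gain, 207 of the 218 remained, which is 4.51% of the testable bins at members. The matching share of the genome was 2.92%. The test was a 2-sided Fisher exact test, with p-values adjusted by Benjamini-Hochberg across the testable bins of the genome. Bins chosen for a large gain are likely to pass it, and 72584 of the 77123 gaining bins of the genome did. No bin lost 40 points or more, which allows up to 0.0654% of the testable bins, and 0.0466% of the bins of the genome did so. At least 1 gaining bin was found at 43 of the 50 members, and 63.6% of all protein-coding genes had one. The percent of bins that gained had a median of 3.85 over the members and 1.69 over all protein-coding genes. The share was carried unevenly: Lrp6, Tcf7l1 and Tcf7l2 held 69 gaining bins, 31.7% of the total, and without these 3 genes 149 of 3729 bins gained (3.996%, interval 3.41% to 4.67%). Of the members, 28 were above the genome share and 22 below it. The matching count over all protein-coding genes was not made, and their median of 1.69% lay under the genome share.

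**Figure D1:**
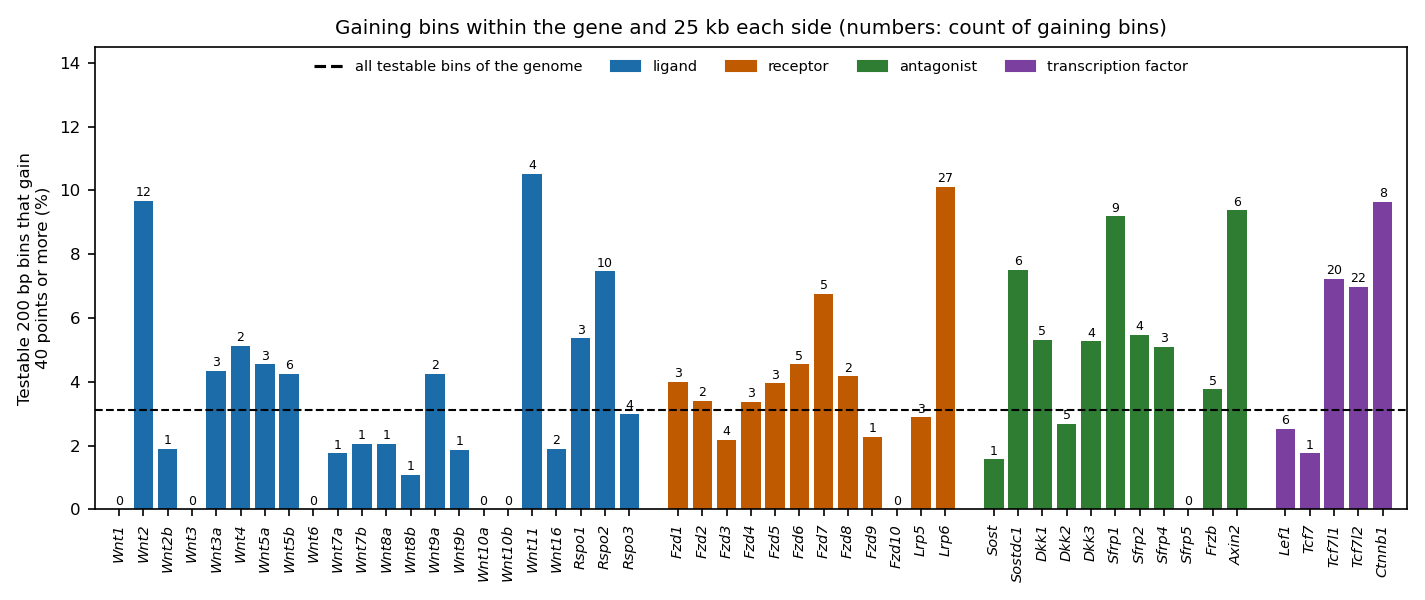
The share of testable 200 bp bins that gained 40 points or more in TCKO is drawn for each member with its flanks, in percent, coloured by role, with the count of gaining bins above each bar and the genome share (3.1%) as a dashed line. Wnt11, Lrp6, Wnt2, Ctnnb1, Axin2 and Sfrp1 stood above 9%, and 7 members had none.

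Gaining bins at members started low in WT and ended high in TCKO, which the limit of 40 points makes necessary in part. Their median level was 26.4% in WT and 82.2% in TCKO, with a median gain of 52.3 points. Of the 218 bins, 77 were under 20% in WT, 8 had no methylated call in WT, and 125 reached 80% or more in TCKO. Inside member genes lay 121 of them, of which 112 were intronic and 2 in coding exons, while 20 lay in another protein-coding gene only and 77 outside any. Most stood alone: the 218 bins formed 203 runs, and 189 of these were a single bin. Just inside the limit of 40 points were bins of Dkk3 (40) and Dkk1 (40.04 and 40.19), and just outside it bins of Lef1 (39.90), Wnt7b (39.72) and Fzd3 (39.64).

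**Figure D2:**
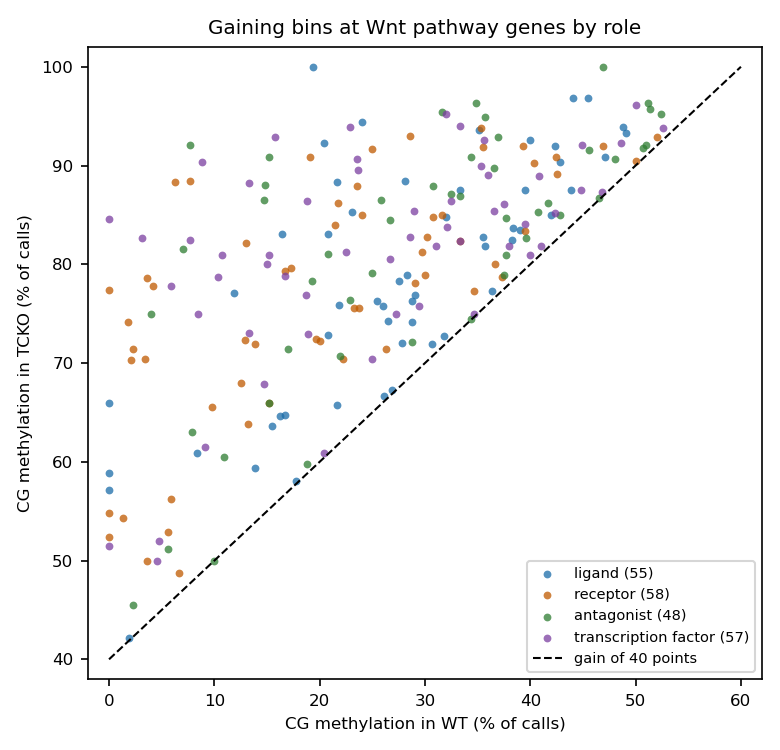
Each point is a gaining bin, with its CG methylation in WT on the x axis and in TCKO on the y axis, in percent of pooled calls, coloured by the role of the gene. The dashed line marks a gain of 40 points, and the points start from 0% in WT, with a median of 26.4%.

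Members had more bins of low starting level than the genome did, 5.21% against 2.90% under 20% in WT and 6.23% against 4.61% from 20% to 40%. Within the low class 77 of 239 bins of the members gained (32.2%), against 36.9% in the genome and 32.1% within 25 kb of any protein-coding gene. From 20% to 40%, 103 of 286 gained (36.0%, genome 30%), and from 40% to 60%, 38 of 531 (7.16%, genome 4.88%). Within the low class the share also differed with CG density. Bins of at least 13 CG cytosines gained in 4 of 39 cases at members (10.3%), and sparser bins in 73 of 200 (36.5%). The genome gave 10.9% and 39.2% and the bins within 25 kb of any gene 7.83% and 34.8%, so the members lay between these backgrounds. The part of starting level and CG density in the differences between members was not tested.

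By role, the share of bins that gained was 3.67% for ligands (55 of 1500), 4.96% for receptors (58 of 1170), 5.06% for antagonists (48 of 949) and 5.88% for the nuclear effectors (57 of 969, interval 4.57% to 7.55%), and the intervals of the 4 roles overlapped. Lrp6 alone held 27 of the 58 receptor bins, and without it 31 of 903 gained (3.43%, interval 2.43% to 4.83%). Tcf7l1 and Tcf7l2 held 42 of the 57 bins of the nuclear effectors, and without them 15 of 377 gained (3.98%, interval 2.43% to 6.46%). Both shares without these genes were computed after seeing the data. The 19 Wnt genes alone were at 3.23% (38 of 1176, interval 2.36% to 4.40%), close to the genome share, and the 3 R-spondin genes at 5.25% (17 of 324, interval 3.30% to 8.24%). Gene bodies gained in 5.78% of bins (121 of 2093), against 3.38% in any gene body, and the parts outside the genes in 3.89% (97 of 2495). The bodies of the nuclear effectors were highest, at 7.53% (51 of 677, interval 5.78% to 9.77%), and those of the ligands lowest, at 3.96% (25 of 632, interval 2.69% to 5.77%). The same genes carried most of the body bins of their roles. Tcf7l1 gained in 19 of 210 body bins, Tcf7l2 in 20 of 256 and Lrp6 in 19 of 203, the last among 26 in receptor bodies.

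Around the TSS the question was whether promoters of Wnt genes gained methylation. Within 2 kb on each side of the TSS, calls were pooled per gene and the libraries compared by a 2-sided Fisher exact test, p-values being adjusted by Benjamini-Hochberg across 21883 genes. Of the 50 members, 21 were higher in TCKO, 3 lower and 26 not called, while 37.9% of all genes were higher and 2.88% lower. The median difference was 4.67 points over the members and 4.71 over all genes. The members started lower, with a median of 21.2% in WT against 45.3% for all genes. By role, 8 of 22 ligands, 8 of 12 receptors, 3 of 11 antagonists and 2 of 5 nuclear effectors were higher.

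A pooled level also moves when the libraries cover different cytosines of a window, so the members were compared once more with each cytosine as its own stratum (Cochran-Mantel-Haenszel test, adjusted over the same genes). This comparison was added after the data were seen. It called 18 members higher and 2 lower, against 44.7% and 1.02% of all genes. By role, 6 ligands, 5 receptors, 4 antagonists and 3 nuclear effectors were higher, so the receptors no longer had the largest share. On cytosines with a call in both libraries, each given the same weight, the median difference of the members was 2.29 points and that of all genes 3.87. Wnt5b, called lower on pooled calls, went from 37.1% to 40.8% on its 98 shared cytosines. Dkk3 changed the other way, from a pooled difference of 13.3 points to -0.46 on 89 shared cytosines. Depth near the TSS was low, with a median over members of 2.24 calls per cytosine in WT and 1.82 in TCKO, and of 817 bins with at least 4 CG cytosines only 159 were testable (19.5%).

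**Figure D3:**
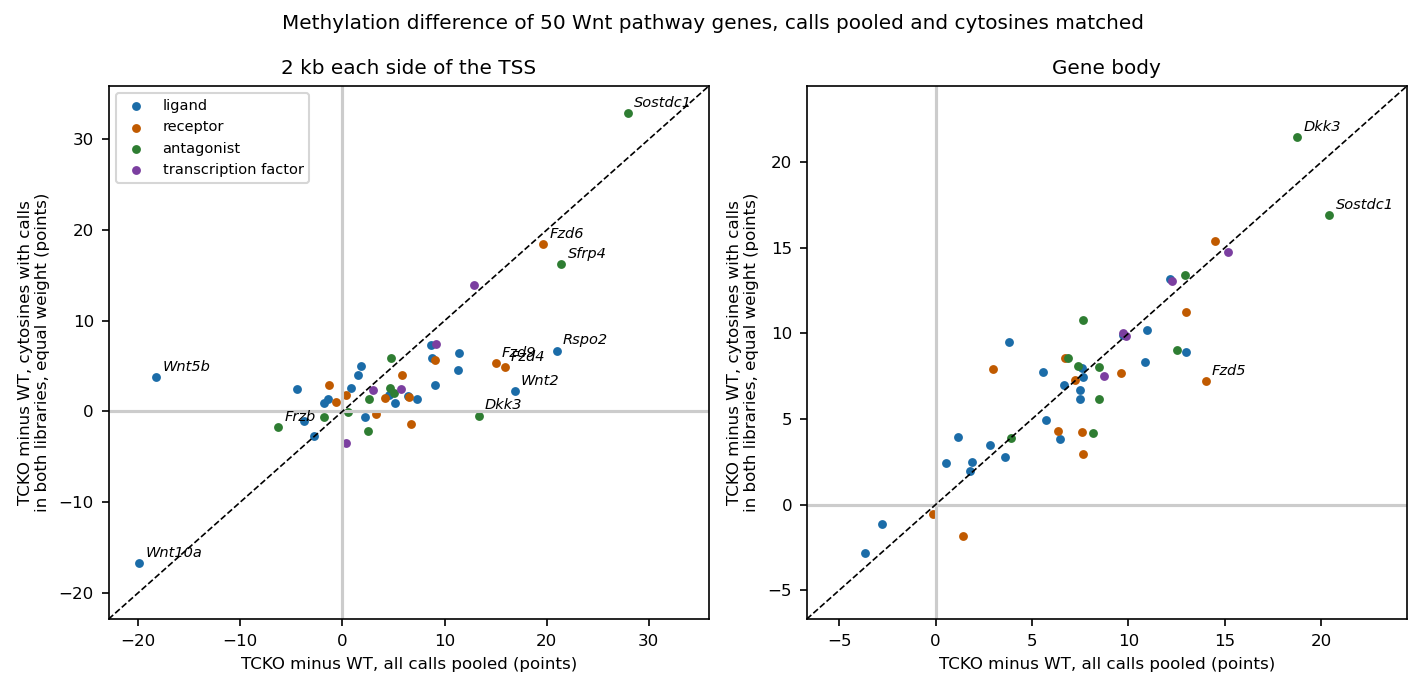
Each point is a member, with the difference of TCKO minus WT on all pooled calls on the x axis and on cytosines called in both libraries on the y axis, both in percentage points, for the TSS window (left) and the gene body (right). The dashed line marks equal values, and Wnt2, Dkk3, Rspo2 and Wnt5b lie far from it at the TSS, while the gene bodies lie nearer to it.

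Of the ligands higher at the TSS, Rspo2 and Wnt2 differed most. Rspo2 went from 25.4% (156 of 613 calls) to 46.4% (241 of 519), a difference of 20.99 points (interval 15.4 to 26.4, Fisher exact test, adjusted p = 7.83e-12). On shared cytosines it went from 20.8% to 27.5% and stayed called. Wnt2 went from 24.7% (109 of 442) to 41.5% (159 of 383), but on shared cytosines only from 22.6% to 24.9%, and was called by both tests. Wnt9a, whose product takes part in joint formation, went from 9.87% to 21.3%, and Wnt16, which protects cortical bone, from 34.1% to 45.4%, and both were called by both tests.

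Several ligands known from bone were not called at the TSS in either comparison. Wnt5a, a ligand of the beta-catenin independent branch, was at 9.04% and 9.84%, a difference of 0.796 points (interval -2.35 to 4.10). Wnt4 was at 28.5% and 33.7% and Wnt3a at 5.22% and 9.77%, and neither passed (Fisher exact test, adjusted p = 0.251 and 0.0981). Wnt1, whose loss causes brittle bones, was at 10.5% and 16.9% (Fisher exact test, adjusted p = 0.056), Wnt10b at 18.3% and 13.9%, and Rspo3 at 7.57% and 9.09%. The intervals of the last 3 differences ran from 0.9 to 12.6, from -9.67 to 0.826 and from -3.06 to 6.45 points. Wnt1 (6.37 points) and Wnt4 (5.18) lay above the median of all genes, 4.71, and the other ligands of this paragraph under it. In the 2 kb upstream Wnt1 and Wnt4 were called higher. With the windows of all annotated transcripts pooled, Wnt1 and Rspo3 (41.9% and 53.1%) were. Wnt3a, Wnt5a and Wnt10b were called in neither.

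Wnt10a, a ligand of skin and tooth, was the ligand lower in both comparisons, from 41.8% (76 of 182 calls) to 21.9% (33 of 151), and from 43.6% to 26.8% on 56 shared cytosines. With the windows of all its annotated transcripts pooled, it was at 29.1% and 23.7% and not called. For Wnt5b (61.9% and 43.6% pooled) the call was lost there too, at 59.2% and 57.4%. Within 1 kb of the TSS Wnt5b kept its lower call on pooled calls and Wnt10a lost it. In the 2 kb upstream neither was called lower.

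In their gene bodies 14 of the 22 ligands were higher, 1 was lower and 7 were not called, a share close to the 64.4% of all genes that were higher in their bodies. Rspo2, 150033 bp long, rose from 67.1% to 79.2% (interval of the difference 11 to 13.3 points), Wnt9a from 47.9% to 60.9% and Wnt2 from 71.8% to 82.7%. Wnt1 fell from 8.66% (61 of 704 calls) to 4.98% (31 of 622; Fisher exact test, adjusted p = 0.0148), and it was not called with each cytosine as a stratum. The body of Wnt5a was at 46.3% and 46.8%, a difference of 0.521 points (interval -1.93 to 2.97), and was called higher only with each cytosine as a stratum, at 36.7% and 39.1% on shared cytosines.

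By number, most gaining bins of the ligands lay at Wnt2 (12 of 124 testable bins), Rspo2 (10 of 134) and Wnt5b (6 of 141). At Rspo2 7 of the 10 lay in introns, and 2 of these had no methylated call in WT (0 of 18 and 0 of 19 calls, which allow up to 16.7% and 15.8%). Wnt11 had 4 gaining bins of 38, the highest share of a ligand (10.5%), with none inside the gene. Wnt3a and Wnt9a lie next to each other on chromosome 11, and the pair of adjacent bins inside Wnt9a at 3372 and 3572 bp from its TSS (19% to 81.9% together) was counted for both. Wnt1, Wnt3, Wnt6, Wnt10a and Wnt10b had none in 43, 83, 59, 60 and 48 testable bins. A count of 0 in these allows a share of up to 6.98%, 3.61%, 5.08%, 5.00% and 6.25%, all above the genome share, so they cannot be told from it. Wnt1 lies beside Wnt10b and Wnt6 beside Wnt10a, and each pair shares flanking bins.

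Of the receptors, Fzd6, a Frizzled that acts in planar cell polarity, differed most at the TSS. It went from 45.4% (368 of 811 calls) to 65.0% (379 of 583; Fisher exact test, adjusted p = 1.44e-11), and by a similar 18.4 points on shared cytosines. Fzd4 went from 18.7% to 34.6% and Fzd9, which has been linked to bone formation, from 35.1% to 50.1%. On shared cytosines these differences were 4.85 and 5.32 points, and both kept their call. Lrp6 went from 7.85% to 13.7% and Lrp5 from 34.1% to 43.2%, of which Lrp5 was not called with each cytosine as a stratum. Both Fzd7 (3.85% and 3.20%) and Fzd8 (6.68% and 7%) were nearly unmethylated in either library.

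Lrp6 carried more gaining bins than any other member, 27 of 267 testable bins (10.1%). Of these 19 lay in the gene, 3 upstream and 5 downstream, and none lay within 2 kb of the TSS. All downstream bins but the one nearest to Lrp6 lay inside another gene, Bcl2l14, the farthest in a coding exon of it. The 3 upstream bins were adjacent and formed the longest run at any member, 600 bp at chr6:134573601-134574200, where the level went from 24.3% (222 calls) to 77.0% (235 calls). The deepest was an intronic bin at 38664 bp from the TSS, at 2.13% in WT (3 of 141 calls) and 70.3% in TCKO. Its gene body rose from 71.1% to 85.7%, by 14.51 points (interval 13.6 to 15.4; Fisher exact test, adjusted p = 4.96e-218), while Lrp5 rose from 79.4% to 86.1%. Lrp5, with 104 testable bins, had 3 gaining ones (2.88%).

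The remaining receptors had 0 to 5 gaining bins each. Fzd6 had 5 of 110, of which 3 lay downstream of the gene and stood at 2.31%, 7.69% and 3.57% in WT. Fzd7 had 5 of 74. An adjacent pair in the downstream flank of Fzd1, named after its values were seen, went from 1.05% (95 calls) to 75.3% (89 calls). Fzd10 had none in 40, which allows up to 7.50%. Over gene bodies, where 64.4% of all genes were higher, 9 of the 12 receptors were higher and 3 were not called, among them the intronless Fzd2, at 2.04% and 1.92%.

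The antagonists held the largest TSS differences of all members. Sostdc1 went from 47.4% (288 of 607 calls) to 75.4% (361 of 479), by 27.9 points (interval 22.2 to 33.3; Fisher exact test, adjusted p = 7.43e-19), and from 37.1% to 70.0% on shared cytosines. Sfrp4, which restrains Wnt signalling in bone, went from 50.9% (311 of 611) to 72.3% (395 of 546), by 21.4 points (interval 15.9 to 26.8; Fisher exact test, adjusted p = 3.63e-12), and from 40.2% to 56.4% on shared cytosines. Sfrp4 was not called within 1 kb of the TSS or in the 2 kb upstream of it, while Sostdc1 was called in both.

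Sost itself, the antagonist made by osteocytes, had fewer calls around its TSS than any other member, 97 of them in TCKO. It was at 31.4% and 36.1%, and the interval of the difference ran from -8.31 to 17.6 points, so neither a gain nor a loss of moderate size was detectable. Its body went from 12% to 20.2% (Fisher exact test, adjusted p = 0.00287). Dkk1 was at 38% and 40.5% at the TSS (Fisher exact test, adjusted p = 0.488) and Sfrp1 at 12.1% and 10.2%. Frzb, a cartilage antagonist, was lower, at 24.9% (349 of 1404 calls) and 18.5% (240 of 1294; Fisher exact test, adjusted p = 4.04e-04). It stayed lower with each cytosine as a stratum, at 13.4% and 11.7% on shared cytosines, and with the windows of all transcripts. Within 1 kb of the TSS or in the 2 kb upstream it was not called lower.

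Over gene bodies 10 of 11 antagonists were higher on pooled calls, against 64.4% of all genes. The body of Dkk1 (46.0% and 49.9%) was called only with each cytosine as a stratum. Sostdc1 rose from 42.9% to 63.3%, Dkk3 from 64.8% to 83.6%, Sfrp1 from 63.9% to 76.9% and Axin2 from 58.6% to 71.1%. Axin2, an inhibitor inside the cell and itself a target of the pathway, was at 16.4% and 21.4% at the TSS. It passed there only with each cytosine as a stratum, and was called with the windows of all transcripts (45.0% and 55.9%). Frzb, lower at its TSS, was higher in its body, from 66.0% to 72.8%.

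Sfrp1 had 9 gaining bins of 98 testable ones, 5 in the gene and 4 downstream. Sostdc1 had 6 of 80 and Axin2 6 of 64, and of the Axin2 bins 3 lay in the gene and 3 downstream, the lowest of them at 4% in WT and 75% in TCKO. Sost had a single one, at -17086 bp from the TSS in an intron of Dusp3, which went from 5.56% (4 of 72 calls) to 51.2% of 41 calls. Dkk1 had 5 of 94, of which 1 lay inside the gene. Sfrp5 had none in 22, which allows up to 13.6%.

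The nuclear effectors had a median difference of 5.71 points at the TSS and 9.90 over the gene body. Over all members these medians were 4.67 and 7.61. With the calls of the nuclear effectors pooled, the differences were alike, 10.7 points at the TSS and 10.6 over the body. Ctnnb1 rose at its annotated gene start from 72.9% (798 of 1095 calls) to 85.7% (816 of 952; Fisher exact test, adjusted p = 3.08e-11). RefSeq places the start of this gene 4184 bp downstream, outside this window, so the value does not describe the RefSeq start. Tcf7 went from 35.0% to 44.1% (Fisher exact test, adjusted p = 0.0122) and was called in both comparisons. Tcf7l1 (18.2% and 23.9%) and Lef1 (6.19% and 6.56%) were not called, and the interval of Lef1 ran from -2.41 to 3.66 points. In this window Tcf7l2 (17.3% and 20.2%) was called only with each cytosine as a stratum. With the windows of all transcripts Lef1 (28.1% and 36.3%), Tcf7l1 (52.3% and 63.1%) and Tcf7l2 (47.7% and 52.8%) were called higher. Within 1 kb of the TSS and in the 2 kb upstream Tcf7l1 was called too, and Tcf7 lost its call.

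All 5 nuclear effectors were higher over their bodies, as were 64.4% of all genes. Ctnnb1 rose from 63.6% to 78.8% by 15.2 points, Tcf7l1 from 71.6% to 83.9%, Tcf7l2 from 72.7% to 82.6%, Tcf7 from 71.3% to 81.1% and Lef1 from 74.1% to 82.9%. Gaining bins were found at Tcf7l2 in 22 of 315 testable bins, at Tcf7l1 in 20 of 277 and at Ctnnb1 in 8 of 83. In the first 2 genes 20 and 19 of these lay in the gene itself, while the downstream bins of Ctnnb1 lay in introns of Ulk4. Tcf7l2 held 3 runs of 2 adjacent bins, of which the deepest went from 32.3% (217 calls) to 84.8% (171 calls). Lef1, with 237 testable bins, had 6 (2.53%), and Tcf7 had 1 of 57, in a UTR, from 8.82% to 90.3%.

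**Figure D4:**
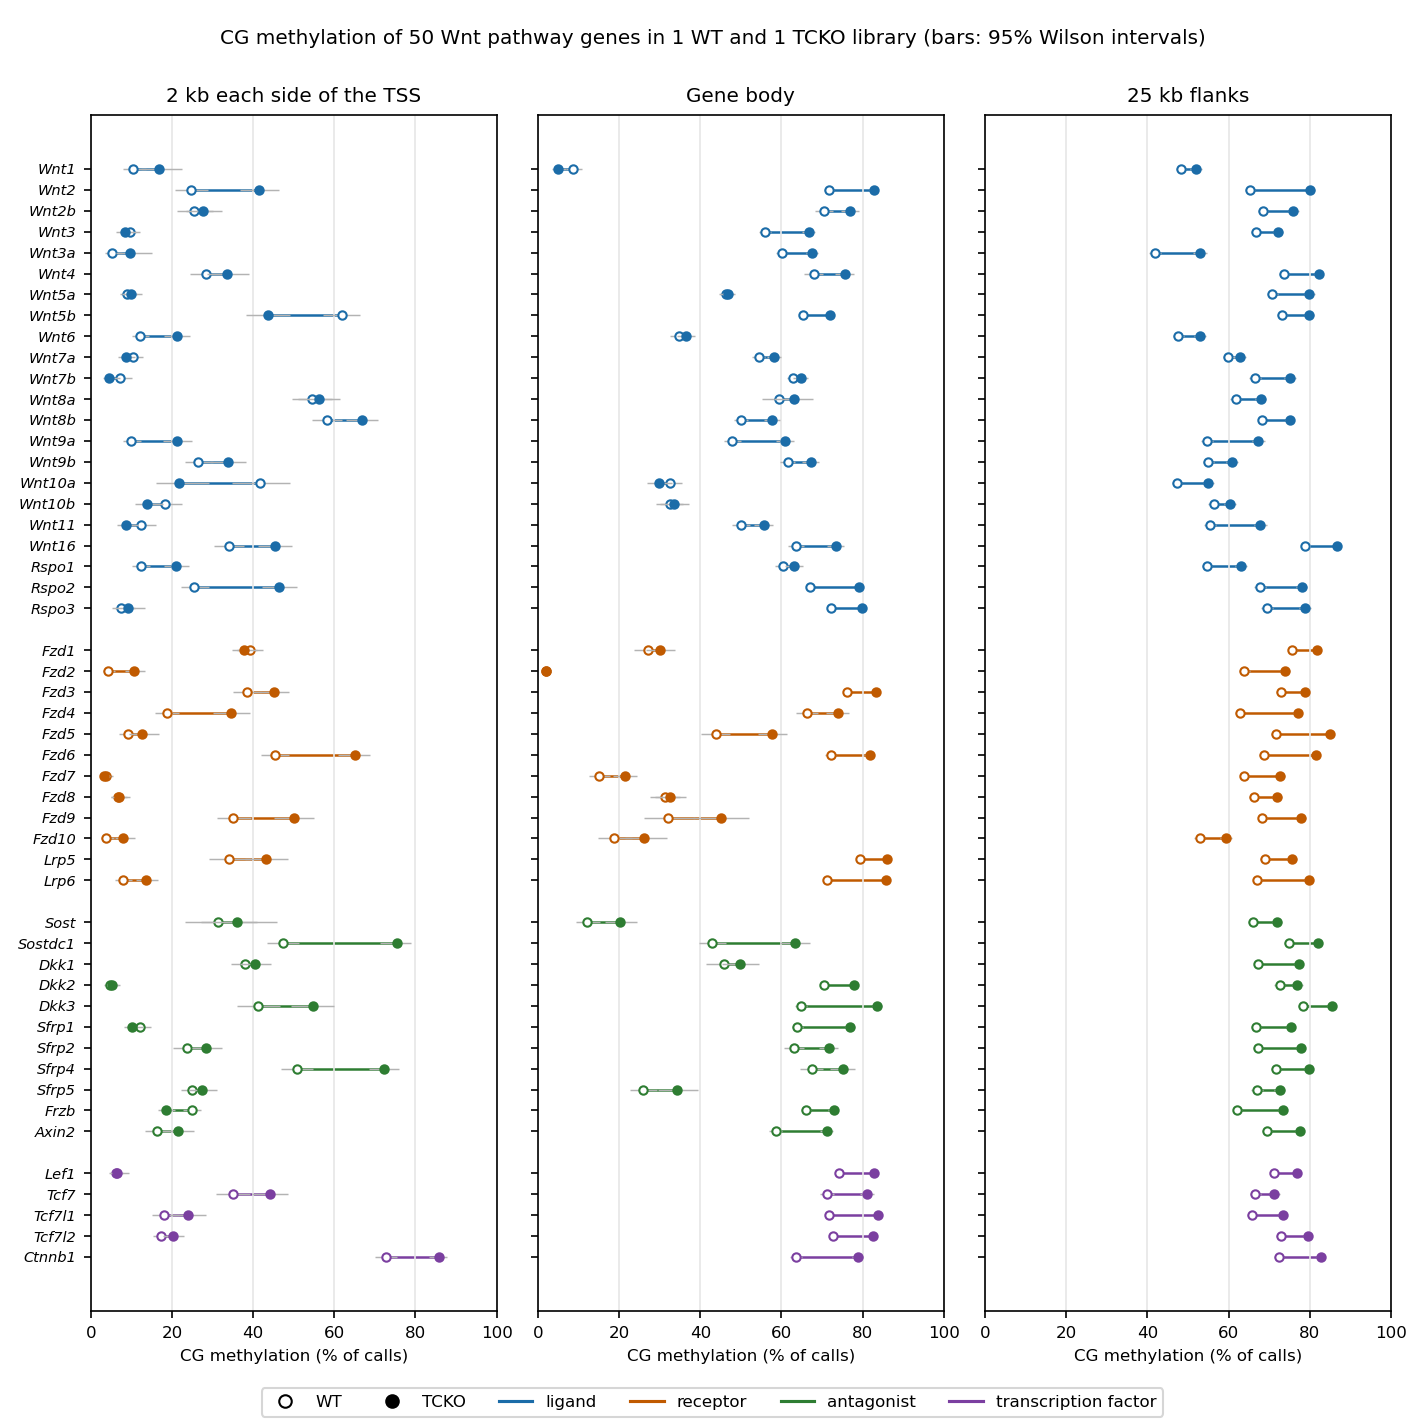
CG methylation in percent of pooled calls is drawn for every member in the WT (open) and TCKO (filled) library, in the TSS window, the gene body and the 25 kb flanks, with 95% Wilson intervals in grey and colours by role. At the TSS the direction varied among members, while all 50 were higher in TCKO in the flanks.

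Over all gene bodies, 38 of the 50 members were higher in TCKO and 1 lower, against 64.4% and 2.79% of all genes, and the median difference was 7.61 points against 5.66. With each cytosine as a stratum 42 were higher and none lower, against 69.1% and 2.07% of all genes. In the 25 kb flanks all 50 were higher, against 81.9% of all genes with 4.65% lower, and the median difference was 7.79 points against 5.67. The smallest was that of Wnt7a, at 2.78 points, and the largest that of Wnt2, at 14.8 points. A flank held at least 3256 calls in each library, and differences of a few points passed there.

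**Figure D5:**
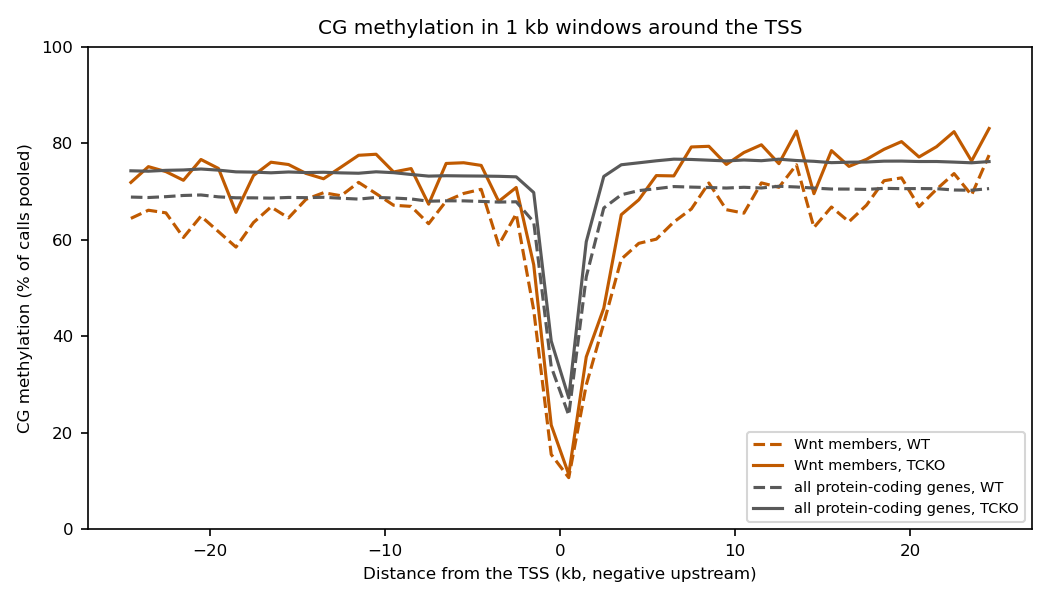
CG methylation of pooled calls, in percent, is plotted in 1 kb windows against the distance from the TSS in kb, for the 50 members (orange) and all protein-coding genes (grey) in WT (dashed) and TCKO (solid). The members dipped to 10.7% in WT and 11.3% in TCKO in the first kb downstream of the TSS, and the lines of the libraries separated on both sides of it.

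The dip at the TSS was described by its width. The run of bins under 20% that holds the TSS had a median width of 2200 bp in WT over the 46 members that had one, against 1400 bp over 13420 genes, and the same medians in TCKO. It was narrower in TCKO at 18 members, equal at 18 and wider at 10, and it was lost at none, while 49.5% of all genes had a narrower run. Sostdc1 narrowed from 1400 to 200 bp and Wnt2 from 2200 to 1000 bp. Wnt7b widened from 1600 to 3400 bp, the largest change of any member, and Wnt3 from 3600 to 4400 bp. Lef1 kept 3600 bp. With a limit of 30% in place of 20%, added after seeing the data, Sostdc1 and Wnt2 narrowed by the same widths and Lef1 kept 3800 bp. Wnt7b then went from 3200 to 3400 bp and Wnt3 from 4000 to 4400 bp. At that limit the median of the members went from 2600 to 2400 bp, and 21 were narrower, 20 equal and 5 wider, while 49.6% of all genes were narrower. Widths are multiples of 200 bp. Bins with under 8 calls in either library were passed over, and bins up to 1 kb apart were joined. A single bin that crosses the limit can thus move a width by more than 200 bp. The effect of such single steps was not tested.

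The other genes of the pathway gave a lower share of gaining bins. Of 48 genes listed for secretion, R-spondin receptors, the destruction complex and further regulators, 46 were found in the annotation. In and around them 195 of 5757 testable bins gained (3.39%, interval 2.95% to 3.89%), against 4.75% at the members. Without Lrp6, Tcf7l1 and Tcf7l2 the members were at 3.996% (interval 3.41% to 4.67%), and the intervals then overlapped. At the TSS 21 of 46 were higher and 1 lower (Porcn, which acylates Wnt proteins, 47.8% and 28.4%), against 37.9% and 2.88% of all genes. Over bodies 38 were higher and none lower, against 64.4% and 2.79% of all genes. The R-spondin receptor gene Lgr4 went from 33.5% to 55.3% at the TSS, and Ror2, a receptor of Wnt5a, had 26 gaining bins of 229. Gsk3b, the kinase that marks beta-catenin for destruction, had 17 gaining bins of 270.

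Short sequence motifs were counted in the bins as exact strings on either strand, and a match says only that the letters are present. The TCF/LEF strings CTTTGAT and CTTTGAA were in 11 of the 218 gaining bins at members (5.05%, interval 2.84% to 8.81%) and in 8.02% of the testable ones there, against 9.28% of gaining and 9.47% of all testable bins of the genome. The bZIP strings TGACTCA and TGAGTCA were in 20 gaining bins (9.17%, interval 6.02% to 13.7%) and in 3.12% of the testable bins at members, and the genome gave 8.44% and 3.03%. For the Runt string AACCACA the shares were 8.72% and 4.86% at members and 8.96% and 5.04% in the genome. The TEAD string CATTCCA (4.59% and 3.01%) and the bHLH string CAGCTG (9.17% and 6.95%) differed less. Of the 8 bins printed above, the Rspo2 bin holds CAGCTG and the others hold none of these strings. Gaining and testable bins at members had the same median number of CG sites, 3, and the same median GC content, 43.5%.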

How the data were processed

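The authors aligned the bisulfite reads to GRCm38 with BSMAP 2.74. For each cytosine of a library they deposited counts, from reads with a single mapping place, of methylated calls and of all calls in CG context. Tools and build follow the submitters' processing notes, and removal of duplicate reads is not given in the sources used here. All 39465543 cytosines in the files lay on a CG of the RefSeq GRCm38 genome, which also gave the sequences. Both libraries had a median of 4 calls per cytosine, and intervals (95%, Wilson for levels and Newcombe for differences) cover counting error only. Methylated and total counts were pooled per window or bin in Python 3.11.15 with NumPy 2.4.6, pandas 2.3.3, SciPy 1.17.1 and Numba 0.67.0. They were compared by 2-sided Fisher exact tests, with Benjamini-Hochberg adjustment over all genes or bins, and a window needed at least 20 calls in each library. Plots were drawn with matplotlib 3.10.9. Scripts were tested on simulated data. Named were, in each role, the 3 members with most gaining bins and the 3 with the largest TSS difference, members with no gaining bin or called lower, a list of bone Wnt genes, the bin of largest gain per role and the longest run. Other genes were named after their values were seen. The members and lists were chosen with earlier results of these data known.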

Additional observations from a re-analysis of the deposited data

How the results depend on the processing

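Each genotype had 1 library, so no setting tests biological spread, and depth near the TSS limits what could be seen there. No paired analysis was possible because the groups share fewer than 2 replicate numbers. Of 47 alternatives 28 left the value near the reported one and 19 moved it. A count was near within a fixed ratio of the reported count, and a share or difference within the reported interval. A change of sign was looked for only in some settings of the pooled differences, and 0 of those reversed. For counts and shares no reversal could be scored. With a mean of at least 1 call per cytosine 639 bins gained (6.08%, genome 4.37%), and with at least 10 calls 27 (3.15%, genome 1.94%). A limit of 30 points gave 436 bins (9.503%, genome 6.16%) and a limit of 50 points 124 (2.70%, genome 1.58%). Cytosines weighted equally, an alternative added after seeing the data, gave 5.69% (genome 3.93%). Within 1 kb of the TSS 10 members were higher in place of 21 (all genes 23.3% in place of 37.9%), with a pooled difference of 3.02 points in place of 5.59. That difference was 8.60 points in the 2 kb upstream, 6.60 over the windows of all transcripts, 6.71 on cytosines with at least 4 calls in both libraries and 2.96 on cytosines with a call in both, the last added after seeing the data. The pooled gene body difference of 9.34 points was 9.79 without the first 2 kb, 7.66 as a mean over members and 10.1 on cytosines with at least 4 calls. The flank difference of 8.32 points was 7.90 on cytosines called in both libraries, also added later. The causes of these shifts were not tested.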
